A study of Homo sapiens with 4 samples.

Results

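TARDBP encodes TDP-43, and TARDBP is described here together with 7 genes of related RNA-binding proteins: HNRNPA1, HNRNPA2B1, TAF15, EWSR1, MATR3, TIA1 and ATXN2. A pair of 50 kb bins belonged to a gene when at least one of its bins overlapped the gene body in the RefSeq annotation, and 49 of the 89239 pairs in the deposited table did so, over 7 of the 8 genes. Within each gene the pairs were taken by position, but the genes themselves were chosen with earlier results of these data known.

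The libraries were made by Micro-C, which cuts crosslinked chromatin with micrococcal nuclease, joins nearby ends and counts how often stretches of DNA lie together. All 4 came from SH-SY5Y, an established human neuroblastoma line. The control group held 2 libraries of genotype control, and the other 2 carried the genotype TDP-43 knockdown, made with a lentiviral shRNA driven by a U6 promoter. Puromycin selection of the knockdown cells lasted 2 weeks at 2 µg/mL, with 1 µg/mL for maintenance, and the shRNA named for the controls is shNC. No puromycin values are given for the control libraries. If the controls were not selected alike, selection and knockdown cannot be told apart here. The protocols describe stably selected lines but not how many clones each held or that separate cultures were used, and a p-value here reflects no more than the spread between the libraries, which may be technical. Over the listed pairs a library held 115168160 to 163147992 contacts. A contact map does not measure the RNA of TARDBP, so the depletion itself was not checked here.

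These 8 proteins bind RNA through RNA recognition motifs, zinc fingers or Sm-like domains, and most carry a low-complexity, prion-like stretch that lets them condense. TDP-43 binds UG-rich RNA, represses cryptic exons and limits its own expression through its own transcript. hnRNP A1 and hnRNP A2/B1 partner with TDP-43 in RNA packaging and splicing, TAF15 and EWS belong to the FET family of transcription and splicing factors, matrin 3 is a nuclear matrix protein that contacts TDP-43, and TIA-1 and ataxin-2 act in stress granules. Variants in most of these genes are known in amyotrophic lateral sclerosis or related disease.

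The start sites of TARDBP, HNRNPA2B1 and EWSR1 lie in bins that took part in differing contacts, and their start-site sequences are shown as the promoter letters inside those bins. Each line gives 250 bases before the start and the first 30 bases after it, 5′ to 3′ on the strand of the gene, from RefSeq on GRCh38.p14. Capitals mark a match to the core motif of YY1, a promoter-binding factor known to take part in DNA looping.

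TARDBP chr1:11012404-11012683 (+): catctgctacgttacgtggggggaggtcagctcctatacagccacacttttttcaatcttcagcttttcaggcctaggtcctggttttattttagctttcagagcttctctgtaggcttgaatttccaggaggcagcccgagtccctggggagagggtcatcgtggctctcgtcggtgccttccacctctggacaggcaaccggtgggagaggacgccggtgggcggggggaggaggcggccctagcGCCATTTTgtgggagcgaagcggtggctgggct
HNRNPA2B1 chr7:26200717-26200996 (-): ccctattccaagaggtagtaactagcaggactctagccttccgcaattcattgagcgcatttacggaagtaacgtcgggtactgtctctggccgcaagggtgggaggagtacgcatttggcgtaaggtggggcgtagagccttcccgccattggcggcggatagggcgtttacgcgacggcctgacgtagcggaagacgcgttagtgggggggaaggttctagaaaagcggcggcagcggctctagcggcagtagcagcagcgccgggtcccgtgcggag
EWSR1 chr22:29268018-29268297 (+): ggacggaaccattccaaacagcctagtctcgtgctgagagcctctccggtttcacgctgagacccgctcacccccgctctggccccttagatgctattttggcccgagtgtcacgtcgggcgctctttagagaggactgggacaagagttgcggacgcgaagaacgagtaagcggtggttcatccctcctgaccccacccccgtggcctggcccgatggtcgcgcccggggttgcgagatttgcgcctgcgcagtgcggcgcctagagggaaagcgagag

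RefSeq start-site windows of 300 bases were matched for 5 of the 8 genes; HNRNPA1, TAF15 and ATXN2 had none in the table used. The window of TARDBP held 17 CpG dinucleotides, that of MATR3 19, that of TIA1 24, that of EWSR1 28 and that of HNRNPA2B1 29, beside a median of 22 over 15842 protein-coding windows. The YY1 core, searched as AANATGGC on both strands, occurred in TARDBP at position -3 from the start site and in 7.92% of all windows. The other 4 windows held no such match. A match to letters is a description and shows no binding, and a window without one says nothing of the factor.

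Among the 49 pairs, 5 differed between the groups with TMM scaling (edgeR quasi-likelihood test, Benjamini-Hochberg adjusted p under 0.05 over all pairs), which is 10.2% of the gene pairs beside 16.2% of all pairs. Higher pairs numbered 2 and lower pairs 3, beside 5.76% and 10.5% of all pairs. Contacts within the bin of TARDBP fell, those within both bins of EWSR1 fell, and 1 pair each of HNRNPA1 and HNRNPA2B1 rose. At least 1 differing pair was thus found for 4 of the 7 genes with listed pairs, beside 57.4% of all protein-coding genes with listed pairs. Once the dependence of the fold change on contact abundance was removed with a loess fit, 0 of the 49 pairs passed (edgeR), beside 11% of all pairs. At an unadjusted p under 0.05 there were 7 of the 49, beside 24.4% of all pairs, so neither share of the gene pairs exceeded that of all pairs. Of the 12 within-bin pairs 3 were lower, beside 14.3% of all within-bin pairs (21.7% in both directions), and of the 37 pairs between bins 2 were higher, beside 3.76% (9.6% in both directions). DESeq2 with its own size factors called 3, beside 11.9% of all pairs. Without knockdown library 1 or without knockdown library 2 the count was 1, and without control library 2 it was 12.

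Over the 49 pairs the median log2 fold change, knockdown over control, was 0.02. It was 0.02 over all pairs and -0.04 over the pairs of all protein-coding genes, and these differences were not tested. Values of the 49 pairs ran from -0.45 to 0.56. Fold changes were above 0 in 28 pairs and below 0 in 21. Groups did not overlap in 24 of the 49 pairs (49.0%), beside 56.1% of all pairs, with 10 higher and 14 lower in knockdown, beside 29.8% and 26.3%. SEs of the log2 fold changes ran from 0.05 to 0.23, with a median of 0.14.

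**Figure D1:**
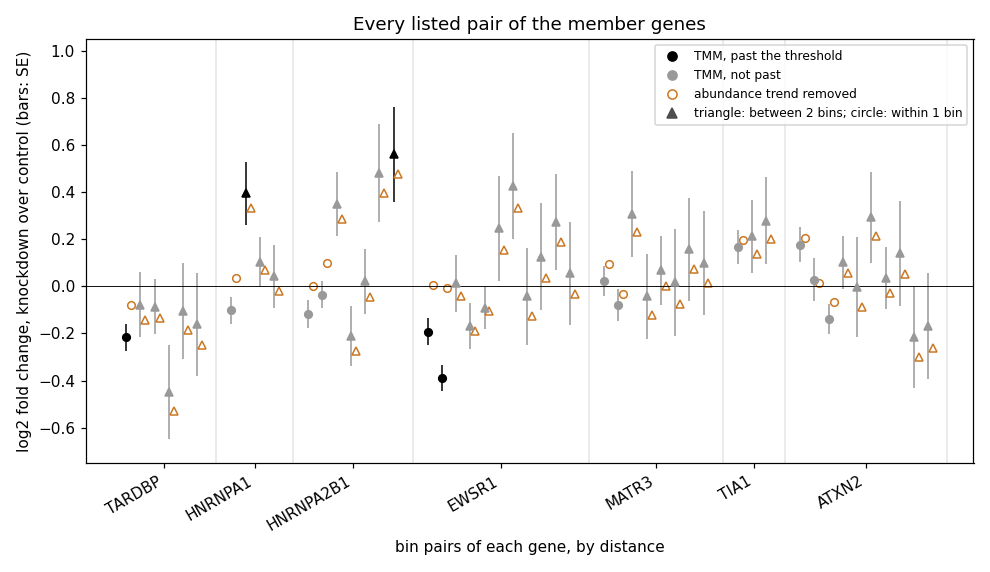
Log2 fold change, knockdown over control, of each of the 49 listed pairs of the 7 genes, grouped by gene and ordered by distance. Filled symbols with SE bars are TMM-scaled values (black, past the threshold; grey, not past), open symbols are values with the abundance trend removed, circles are contacts within a bin and triangles contacts between bins. The 5 black symbols are 3 lower within-bin contacts at TARDBP and EWSR1 and 2 higher contacts between bins at HNRNPA1 and HNRNPA2B1.

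TARDBP (gene ID 23435, chromosome 1, 11012654 to 11030528) is 17875 bp long and lies in a single bin, at 11000001 to 11050000, which also holds part of MASP2, a complement protease gene that overlaps it by 4006 bp. Contacts within this bin stood at 39.2 and 37.2 CPM in control and at 32.8 and 32.9 CPM in knockdown (CPM, contacts scaled to the TMM-adjusted size of the library). Both knockdown values lay below both control values. The log2 fold change was -0.22 (SE 0.06, edgeR adjusted p = 0.00265), a fall of 14.0%. The fold change stayed at -0.22 when knockdown library 1 or 2 was left out, but did not pass (adjusted p = 0.12 and 0.0995). It did not pass either after trend removal (log2 fold change -0.08, adjusted p = 0.326).

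All 5 of the other TARDBP pairs also had fold changes below 0 under each of these scalings, and none passed. The largest was with the bin at 10900001 to 10950000, which overlaps CIROZ, at 2.93 and 2.42 CPM in control and 2.16 and 1.77 CPM in knockdown (log2 fold change -0.45, SE 0.20, adjusted p = 0.113). That pair passed without control library 2 (log2 fold change -0.58, adjusted p = 0.0485). Toward the other side, contacts with the bin of SRM, the spermidine synthase gene, and EXOSC10, a subunit of the RNA exosome, were at 6.60 and 6.68 CPM in control and 6.36 and 6.15 CPM in knockdown (adjusted p = 0.673). TARDBP also had listed contacts 600 and 650 kb away, with bins of the F-box genes FBXO2, FBXO44 and FBXO6, which encode substrate receptors of ubiquitin ligases. At 650 kb the levels were 1.98 and 1.93 CPM in control and 1.76 and 1.74 CPM in knockdown, without overlap, but the log2 fold change of -0.16 had a 95% interval (1.96 SE on each side) of -0.59 to 0.27.

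The lower contacts at TARDBP were not limited to its own bin. With TMM scaling 11 of the 20 bins within 500 kb on either side had lower within-bin contacts and none had higher ones, beside 14.3% and 7.4% of all within-bin pairs. These flanking bins were abundant, with a median of 57.5 CPM. When all within-bin pairs were divided into 10 equal classes of mean level, 13 of the 20 fell in the highest class, where 84.8% of all pairs were lower, and the 11 lower bins were all among these 13. The TARDBP bin lay inside a run of 10 adjoining lower bins, from 400 kb before it to 50 kb after it. The bin 400 kb away fell most, by 0.54 on the log2 scale. After trend removal 1 of the 20 was lower and 2 were higher, beside 5.12% and 7.89% of all within-bin pairs, and the flanking median moved from -0.24 to 0.01. The 1 still lower was that same bin 400 kb before TARDBP (log2 fold change -0.18, edgeR adjusted p = 2.54e-05). TARDBP was the gene of the set with the most lower flanking bins.

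**Figure D2:**
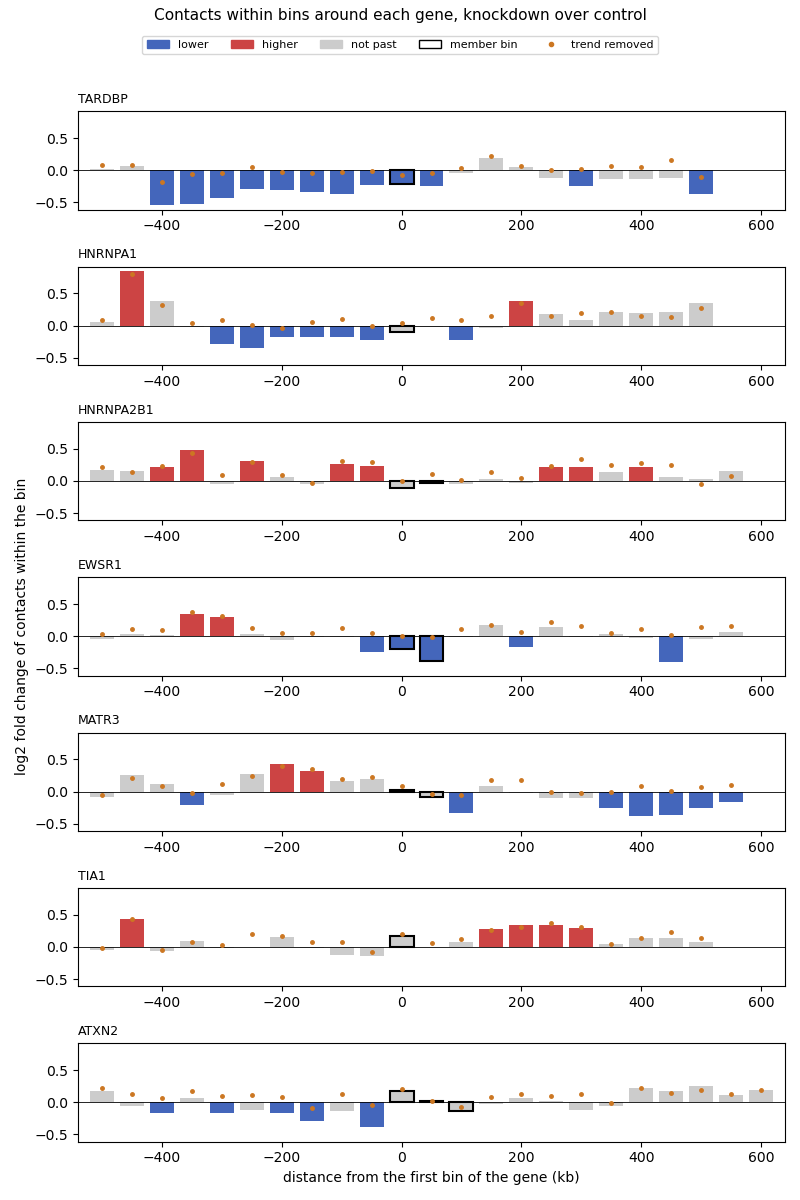
Log2 fold change of contacts within each 50 kb bin, from 500 kb before the first bin of a gene to 500 kb after its last bin, for the 7 genes with listed pairs. Bars are TMM-scaled values (blue, lower; red, higher; grey, not past the threshold), black outlines mark the bins of the gene and dots are values with the abundance trend removed. Around TARDBP 11 of 20 flanking bins were lower, and around HNRNPA2B1 8 of 20 were higher and none lower.

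HNRNPA1 (gene ID 3178, chromosome 12, 54280726 to 54287087) encodes the splicing repressor hnRNP A1 and lies 603 bp from CBX5, the gene of heterochromatin protein HP1 alpha, whose body runs into the neighbouring bin. The HNRNPA1 bin, at 54250001 to 54300000, also holds parts of CBX5 (54230942 to 54280122) and NFE2. Its contacts with the bin at 54200001 to 54250000, which holds CBX5 alone, stood at 3.80 and 4.64 CPM in control. They rose to 5.55 and 5.54 CPM in knockdown. This pair thus joins 2 bins that CBX5 itself spans. The groups did not overlap, and the log2 fold change was 0.39 (SE 0.13, edgeR adjusted p = 0.0284). The 2 control libraries differed by more from each other than the knockdown libraries did. The call was lost without control library 1 (log2 fold change 0.24, adjusted p = 0.242) and with the trend removed (log2 fold change 0.33, adjusted p = 0.0975). It was also lost with little change in size without knockdown library 1 (0.39, adjusted p = 0.224) or 2 (0.40, adjusted p = 0.194) and with DESeq2 (0.38, adjusted p = 0.0922).

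Within the HNRNPA1 bin, contacts were at 37.2 and 36.4 CPM in control and 34.9 and 33.7 CPM in knockdown. The knockdown values were the lower ones, but the log2 fold change of -0.10 did not pass (adjusted p = 0.223) and was 0.03 with the trend removed. Contacts toward COPZ1, a coatomer subunit gene, had log2 fold changes of 0.10 at 50 kb and 0.04 at 100 kb, with adjusted p of 0.562 and 0.874.

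HNRNPA2B1 (gene ID 3181, chromosome 7, 26189927 to 26200746) encodes hnRNP A2/B1. Like HNRNPA1 it stands close to an HP1 gene: CBX3, which encodes HP1 gamma, starts 696 bp away on the opposite strand. The bin at 26200001 to 26250000 holds only the 5′ end of HNRNPA2B1, up to 26200746, and all of CBX3 (26201443 to 26213607). The contacts of this bin are thus mostly not those of HNRNPA2B1 sequence. Contacts of this bin, which holds the HNRNPA2B1 and CBX3 starts, were listed with a bin of SNX10, a sorting nexin gene, 100 kb away. They stood at 1.67 and 1.99 CPM in control and rose to 2.99 and 2.41 CPM in knockdown. Both knockdown libraries were above both controls, with a log2 fold change of 0.56 (SE 0.20, edgeR adjusted p = 0.0408), the largest increase among the 49 pairs. The call was lost with a smaller fold change after trend removal (0.48, adjusted p = 0.107) and when control library 1 (0.43, adjusted p = 0.165) or knockdown library 1 (0.40, adjusted p = 0.497) was left out. It was also lost without knockdown library 2, where the fold change was larger (0.71, adjusted p = 0.0854), and with DESeq2, where it was near the same size (0.55, adjusted p = 0.0896).

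On its other side HNRNPA2B1 had contacts with bins that hold no protein-coding gene. These were at 3.84 and 4.69 CPM in control and 5.64 and 5.23 CPM in knockdown at 50 kb (log2 fold change 0.35, adjusted p = 0.0606), and at 1.46 and 2.08 against 2.75 and 2.20 CPM at 100 kb (0.48, adjusted p = 0.104). The groups did not overlap at either distance, and neither passed the test. By contrast, contacts between the 2 bins that the gene overlaps were at 5.56 and 5.94 CPM in control and 5.06 and 4.88 CPM in knockdown (log2 fold change -0.21, adjusted p = 0.268). The second of these bins holds only the 5′ end of the gene.

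Within the bin shared with NFE2L3, which encodes a stress-response transcription factor, HNRNPA2B1 had 32.7 and 34.4 CPM in control and 30.9 CPM in each knockdown library (log2 fold change -0.12, adjusted p = 0.17). This pair passed without control library 1 (log2 fold change -0.17, adjusted p = 0.028). Within the bin shared with CBX3 the groups overlapped, at 35.9 and 35.3 against 35.5 and 34.0 CPM (log2 fold change -0.04, adjusted p = 0.731). The surroundings of HNRNPA2B1 differed from those of TARDBP in direction. None of its 20 flanking bins was lower and 8 were higher with TMM scaling, and 11 were higher with the trend removed, beside 7.4% and 7.89% of all within-bin pairs. Their median level was 19.4 CPM, and none lay in the highest class of mean level. The difference between these flanks was not tested.

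TAF15 (gene ID 8148, chromosome 17, 35809484 to 35847242), a FET family gene, overlapped none of the listed pairs, so no level or change is given for it. Its bin lies at the start of a stretch of 3000 kb, with 53 protein-coding genes, that no listed pair overlapped. The nearest listed bin adjoins it, at 35750001 to 35800000, and holds MMP28, a metalloproteinase gene. There the contacts within the bin had a log2 fold change of -0.20 (adjusted p = 0.051), and neither of its 2 pairs passed. TAF15 was 1 of 1334 protein-coding genes without a listed pair, of 20033 in all.

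EWSR1 (gene ID 2130, chromosome 22, 29268268 to 29300521) encodes the FET protein EWS, known for its fusions in Ewing sarcoma. A bin at its 3′ end had the largest within-bin decrease of the set. Its body crosses 2 bins. In the first, which holds its start and RHBDD3, a rhomboid-domain gene 104 bp away on the opposite strand, contacts stood at 48.9 and 51.9 CPM in control and 42.5 and 45.7 CPM in knockdown. Both knockdown values were below both controls, with a log2 fold change of -0.19 (SE 0.06, edgeR adjusted p = 0.00779). This call was lost without knockdown library 1 (log2 fold change -0.14, adjusted p = 0.41) and without knockdown library 2 (-0.25, adjusted p = 0.0608).

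The second bin of EWSR1, at 29300001 to 29350000, holds only the 3′ end of the gene, up to 29300521. The rest of this bin overlaps GAS2L1, RASL10A and AP1B1, so its contacts are mostly not those of EWSR1 sequence. Contacts there stood at 125 and 132 CPM in control and 97.9 and 98.3 CPM in knockdown. The gap between the groups was wider than that between libraries of a group, and the log2 fold change was -0.39 (SE 0.06, edgeR adjusted p = 3.13e-09), a fall of 23.6%. This call held without each library in turn. After trend removal it was -0.01 in this bin (adjusted p = 0.92) and 0.00398 in the first (adjusted p = 0.97).

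None of the 9 EWSR1 pairs between bins passed, and they pointed both ways. Fold changes were above 0 in 6 and below 0 in 3. The largest was between the start bin and the bin of AP1B1, an adaptor complex gene, 100 kb away, at 1.26 and 1.76 CPM in control and 1.73 and 2.32 CPM in knockdown (log2 fold change 0.43, adjusted p = 0.196). Contacts with the bin of NEFH, the neurofilament heavy chain gene, were at 1.58 and 2.49 CPM in control and 2.55 and 2.38 CPM in knockdown (log2 fold change 0.27, adjusted p = 0.396). Summed over the 9 pairs, the levels were 36.9 ± 1.82 CPM in control and 36.6 ± 1.26 CPM in knockdown (SD, n = 2), less apart than the libraries of a group.

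MATR3 (gene ID 9782, chromosome 5, 139274101 to 139331677) encodes matrin 3, and none of its 8 pairs passed. Within the bin of its start, contacts were at 24.7 and 24.2 CPM in control and 24.3 and 25.4 CPM in knockdown, with a log2 fold change of 0.02 and a 95% interval of -0.10 to 0.15. Within its second bin, shared with PAIP2, a regulator of poly(A)-binding protein, they were at 21.6 and 20.7 against 20.6 and 19.5 CPM (log2 fold change -0.08, interval -0.21 to 0.05). The largest value was 0.31, with the gene-free bin 50 kb before the start, at 2.41 and 2.37 CPM in control and 2.93 and 2.98 CPM in knockdown (adjusted p = 0.27). There the groups did not overlap.

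MATR3 also had the longest contact of the set, 700 kb, with the bin of HSPA9, the mitochondrial Hsp70 gene, and 1 of 350 kb with a bin of CTNNA1 and SIL1. At 700 kb the levels were 2.13 and 1.47 CPM in control and 1.58 and 2.27 CPM in knockdown. The groups overlapped, and the log2 fold change was 0.10 (adjusted p = 0.813). Over all 6 member pairs of 200 kb or more, at TARDBP, EWSR1 and MATR3, none passed, beside 9.04% of all pairs at these distances.

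TIA1 (gene ID 7072, chromosome 2, 70209444 to 70248793) encodes a stress granule nucleator and splicing regulator, and lies in a single bin. Contacts within it were at 16.1 and 17.8 CPM in control and 19.2 and 18.9 CPM in knockdown. Both knockdown libraries were above both controls, and the log2 fold change of 0.17 (SE 0.07) did not pass (adjusted p = 0.102; 0.0615 with the trend removed). It passed without control library 2 (log2 fold change 0.24, adjusted p = 0.0188) and when within-bin pairs were fitted alone (0.18, adjusted p = 0.044). The neighbouring pairs, toward C2orf42 and toward SNRPG, a spliceosomal Sm protein gene, had log2 fold changes of 0.21 and 0.28 with overlapping groups. All 3 pairs of TIA1 thus had values above 0 under both scalings, and none was called in either.

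ATXN2 (gene ID 6311, chromosome 12, 111452214 to 111599673), the longest gene of the set at 147460 bp, encodes ataxin-2, a polyglutamine protein that modifies TDP-43 toxicity in model organisms. It spans 3 bins, and its 3 within-bin values pointed different ways. In the first, shared with SH2B3, a signalling adaptor gene, contacts were at 15.8 and 16.9 CPM in control and 18.3 and 18.7 CPM in knockdown (log2 fold change 0.18, adjusted p = 0.0826). In the middle bin they were at 10.8 and 10.2 against 11.2 and 10.2 CPM (0.03, adjusted p = 0.884). In the last bin they were at 25.4 and 26.6 CPM in control and 24.0 and 23.3 CPM in knockdown (-0.14, adjusted p = 0.134). The groups did not overlap in the first and last bins. The first passed without control library 2 (log2 fold change 0.23, adjusted p = 0.0287) and when within-bin pairs were fitted alone (0.19, adjusted p = 0.0344), and the last without control library 1 (-0.18, adjusted p = 0.0373).

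Contacts between the bins of ATXN2 and toward its neighbours did not pass in any of 7 pairs. Between the middle and last bins of the gene they were at 2.48 and 1.93 CPM in control and 2.64 and 2.76 CPM in knockdown (log2 fold change 0.29, adjusted p = 0.326), the largest change of the gene. Between the first and middle bins they were at 2.63 and 1.53 against 2.00 and 2.15 CPM, where the control libraries lay on either side of the knockdown ones.

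Across the 12 within-bin contacts the order of levels was led by the second EWSR1 bin, at 128 ± 4.77 CPM in control (SD, n = 2), above the first EWSR1 bin at 50.4 ± 2.10 CPM. TARDBP at 38.2 ± 1.43, HNRNPA1 at 36.8 ± 0.572, and the HNRNPA2B1 bins at 35.6 ± 0.419 and 33.6 ± 1.23 CPM followed, and TARDBP and HNRNPA1 did not differ beyond their spread. The lowest was the middle bin of ATXN2, at 10.5 ± 0.415 CPM. All bins are of equal length. The bin with the highest level also had the largest within-bin decrease.

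**Figure D3:**
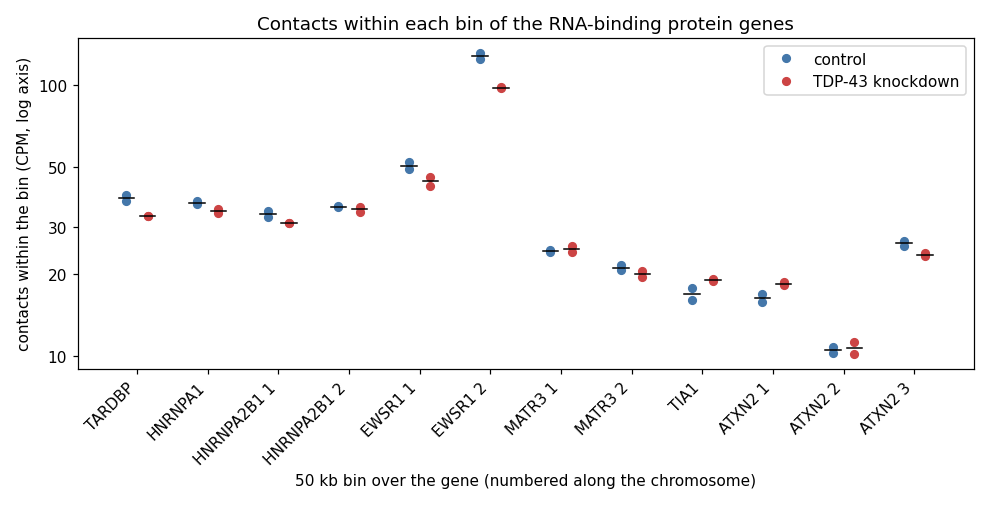
Contacts within each of the 12 bins of the 7 genes, in CPM on a log axis, with 1 point per library (2 control, 2 knockdown) and a black line at each group's mean; numbers after a name count the bins along the chromosome. The knockdown points lie below the control points at TARDBP, HNRNPA1, the first HNRNPA2B1 bin, both EWSR1 bins, the second MATR3 bin and the last ATXN2 bin, and above them at TIA1 and the first ATXN2 bin.

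Set against bins of like abundance, 7 of the 12 within-bin changes lay inside the quartiles of their class, 4 above and 1 below. Among the 10 classes of all 48992 within-bin pairs, the median log2 fold change was -0.29 in the highest class (quartiles -0.39 and -0.20), and 84.8% of its pairs were lower. Both EWSR1 bins belong to that class. Its values of -0.39 and -0.19 lay near the lower quartile and just above the upper one. TARDBP, HNRNPA1, both HNRNPA2B1 bins, the first MATR3 bin and the last ATXN2 bin belong to the next class, with a median of -0.09 and quartiles of -0.19 and -0.01, where 32.4% of pairs were lower. TARDBP, at -0.22, lay below the lower quartile of its class, whereas HNRNPA1 at -0.10 lay near the median and the first MATR3 bin, at 0.02, above the upper quartile. TIA1 and the first ATXN2 bin lay above the upper quartile of theirs, 0.08. These positions are descriptions and were not tested.

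**Figure D4:**
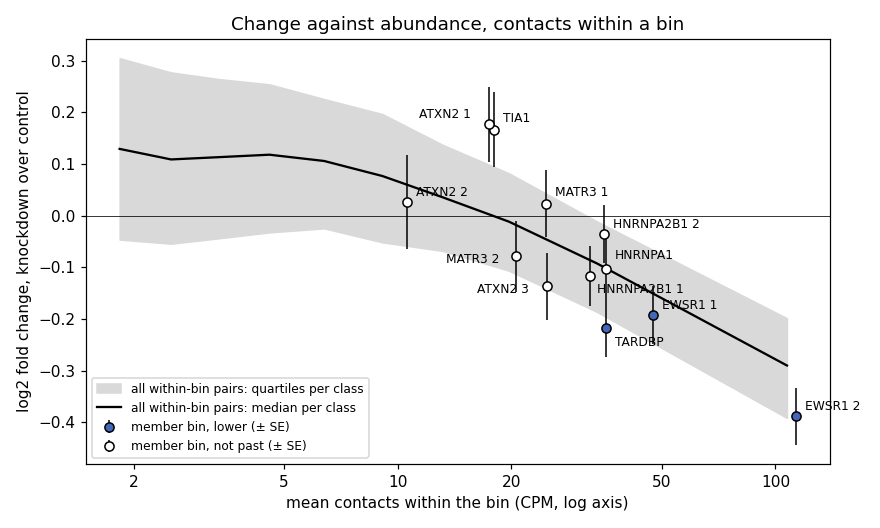
Log2 fold change against mean level (CPM, log axis) of contacts within a bin. The line and grey band are the median and quartiles of all 48992 within-bin pairs in 10 equal classes, drawn at the middle of each class on the log axis, and points are the 12 bins of the 7 genes with SE bars (blue, lower; white, not past the threshold). The second EWSR1 bin is the most abundant and lowest, while TIA1 and the first ATXN2 bin sit above the band.

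A further measure needs no scaling between libraries: the share of a gene's listed contacts that stay within a bin. At TARDBP the share was 67.6% and 67.9% in control and 66.5% and 66.7% in knockdown. At HNRNPA1 it was 68.9% and 69.0% in control and 64.4% and 65.2% in knockdown, and at EWSR1 83.0% and 82.8% in control and 79.7% and 79.3% in knockdown. The knockdown shares were below the control shares without overlap at 5 of the 7 genes, namely these and HNRNPA2B1 and MATR3, and overlapped with them at TIA1 and ATXN2. That pattern was general, since 74.9% of 14884 genes with both kinds of pair had it and 1.77% had the reverse. With 2 libraries against 2, the smallest two-sided exact permutation p is 0.333.

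Genes of like function were described by 3 lists with 55 genes in all: the rest of the hnRNP family, stress granule genes, and paraspeckle, splicing and nuclear import partners. A listed pair overlapped 54 of them, and 33 (61.1%) overlapped a differing pair, beside the 57.4% of all genes. Of the 54, 25 overlapped only lower pairs, 5 only higher ones and 3 both, beside 41.6%, 11.8% and 4.08% of all genes, where lower pairs also outnumbered higher ones. With the trend removed 16 did (29.6%), beside 37.7% of all genes. The median log2 fold change over their 408 pairs was -0.05, and that over the pairs of all genes -0.04. Without knockdown library 1 the count was 15 and without knockdown library 2 it was 16.

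In the hnRNP family 15 of 24 genes (62.5%, beside 57.4% of all genes) overlapped a differing pair, 12 only lower and 3 only higher. With the trend removed 7 did (29.2%, beside 37.7%). The largest decrease was within the bin of PTBP1, the polypyrimidine tract binding protein that represses neuronal exons, from 54.5 ± 4.75 to 36.7 ± 1.29 CPM (SD, n = 2; log2 fold change -0.57, edgeR adjusted p = 2.46e-16), and it also passed with the trend removed (-0.38, adjusted p = 2.49e-11). Contacts within the bin of SYNCRIP fell by 0.30 on the log2 scale and within that of HNRNPH1 by 0.29, the latter not passing with the trend removed (adjusted p = 0.131). The 3 that rose were RALY, HNRNPLL and HNRNPA0, all past the threshold under both scalings. At RALY and HNRNPLL the contacts were between bins 150 kb apart and few. Their means were 1.39 CPM in control and 2.39 CPM in knockdown at RALY (log2 fold change 0.78), and 1.77 and 3.01 CPM at HNRNPLL (0.77). At HNRNPA0 they were within a bin, at 5.32 and 7.40 CPM (0.48).

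Among stress granule genes 9 of 14 (64.3%, beside 57.4% of all genes) overlapped a differing pair. Of these 6 overlapped only lower pairs, 1 only higher ones and 2 both. With the trend removed 5 of the 14 did (35.7%, beside 37.7%). USP10, the deubiquitinase bound by G3BP, had a lower pair between bins 150 kb apart (log2 fold change -0.62). Its mean level was 2.12 CPM in control and 1.38 CPM in knockdown. CAPRIN1, a further G3BP partner, had a lower pair between bins 50 kb apart (-0.30). Both passed with the trend removed (-0.71 and -0.31). The translational repressor PUM2 had a lower within-bin contact (-0.42) and a higher contact between bins (0.52), and neither passed with the trend removed (adjusted p = 0.491 and 0.111). A contact of DDX6, an RNA helicase of P-bodies, between bins 50 kb apart rose by 0.57 with TMM scaling. It did not pass with the trend removed (adjusted p = 0.1).

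Among paraspeckle, splicing and import partners 9 of 16 (56.25%, beside 57.4% of all genes) overlapped a differing pair. Of these 7 overlapped only lower pairs, 1 only higher ones and 1 both. With the trend removed 4 of the 16 did (25%, beside 37.7%). Of the ELAVL family, which encodes Hu proteins that stabilise AU-rich RNA, contacts fell within bins of ELAVL2 (log2 fold change -0.39), ELAVL1 (-0.34) and ELAVL3 (-0.31) and rose within one of ELAVL4 (0.48). ELAVL2 alone of these passed with the trend removed (-0.38, adjusted p = 0.000412), against adjusted p of 0.146, 0.924 and 0.107 for the others. A bin of CELF2, a splicing regulator, rose from 2.16 ± 0.0106 to 3.25 ± 0.195 CPM (log2 fold change 0.59, edgeR adjusted p = 0.0156; 0.0481 with the trend removed).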

How the data were processed

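Micro-C contacts of 2 control and 2 knockdown libraries were taken from the deposited table as raw counts per pair of 50 kb bins. HiC-Pro and hg38, without versions, come from the submitters' processing notes. Per the file headers the authors also gave a log2 fold change and log2 abundance, an F statistic (a score), a p-value and its adjustment. The table starts at a log2 abundance of -0.01, so weaker pairs were not analysed here and totals are not full depths.

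All 89239 pairs were fitted with edgeR 4.0.16 (R 4.3.3, limma 3.58.1; TMM, glmQLFit, glmQLFTest), with p-values adjusted by Benjamini-Hochberg. The filter filterByExpr removed 0 pairs. TMM factors were 0.944 to 1.05. For the trend-removed fit, per-library loess offsets (span 0.3) replaced TMM. DESeq2 1.42.0, TMM within distance classes, a replicate block, the authors' own table, other thresholds, subsets of pairs and each library left out were the alternatives. The fits were tested on simulated data with known changes. The TMM and trend-removed fits each recovered 32% of changes of log2 0.5 and 100% of changes of log2 1, and DESeq2 20% and 99%. All simulated pairs were drawn with the same dispersion, and recovery was counted over all kinds of pair. In the data the SEs were 0.06 to 0.09 for member within-bin pairs and 0.09 to 0.23 for member pairs between bins. The recovered shares thus do not describe within-bin pairs. Among pairs with the larger SEs, changes of 0.5 or less could often be missed. The simulated counts held no abundance trend, so how the trend-removed fit treats one was not tested. The common dispersion gave a coefficient of variation of 9.01%.

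Gene bodies are RefSeq's on GRCh38.p14. Named pairs are each gene's within-bin pairs, each pair past the threshold and its largest change; for the lists, up to 3 genes each way with the largest called change and groups that did not overlap. Other member pairs were added with their values known. The members and lists were chosen with earlier results of these data known. Python 3.11.15, numpy 2.4.6, pandas 2.3.3 and matplotlib 3.10.9 were used.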

Additional observations from a re-analysis of the deposited data

How the results depend on the processing

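The 5 member pairs past the threshold became 3 with DESeq2, with TMM within distance classes, at an adjusted p under 0.01 and in start-site bins only (known for 5 member and 49 list genes). Within-bin pairs fitted alone gave 5 member pairs (3 lower, and 2 higher at TIA1 and ATXN2), 4 member genes and 29 related genes. Member pairs numbered 0 in the authors' own table, after removal of the abundance trend and with between-bin pairs fitted alone. The last fit holds no within-bin pair, so calls on such pairs, here and in the gene counts below, could not recur in it. Leaving out 1 library gave 1 to 12. The 4 member genes with a differing pair became 2 with DESeq2, with distance classes and at 0.01, 0 in the authors' own table, after trend removal and with between-bin pairs alone, and 1 to 6 with 1 library left out. The 33 related genes became 16 with the trend removed, 17 in the authors' own table, 5 with between-bin pairs alone, 21 in start-site bins only and 15 to 37 with 1 library left out; a lone library was taken to vary like the other group.

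Values that changed sign lay within 0.1 of 0 in the alternative. After trend removal, and then in the authors' own table, within-bin log2 fold changes became 0.0342 and 0.0343 at HNRNPA1, 0.000415 and 0.000541 in the first and 0.0994 and 0.0994 in the second HNRNPA2B1 bin, and 0.00398 and 0.00409 in the first EWSR1 bin. With 1 library left out the first MATR3 bin ranged from -0.00876 (without TDP43KD replicate 2) to 0.0543, and the middle ATXN2 bin from -0.0441 (without TDP43KD replicate 1), with -0.0117 without control replicate 2, to 0.0969. The cause was not tested, though the trend fit by construction removes what moves with abundance.

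Libraries of the same number did not deviate together (r = 0.0192), and the labels give no shared origin. With a replicate block, 6 member pairs, 4 member genes and 34 related genes passed. The filter removed 0 pairs, so the fit without it is the same fit and tests nothing. SEs reached 0.23 on the log2 scale in the pairs with few contacts, which limits what could be detected there.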
